A study of Mus musculus with 15 samples.

Results

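Carbonic anhydrases are zinc enzymes that interconvert carbon dioxide with bicarbonate and a proton, and so set how fast acid and CO2 move within and out of a cell. The mouse forms differ mainly in where they act. Car2, Car13 and the catalytically inactive Car8 lie in the cytosol, Car5b lies in mitochondria, Car6 is secreted (it is best known from saliva), Car4 is tied to the cell surface by a lipid anchor, and Car9, Car12 and Car14 span the plasma membrane. Car9 and Car12 are known as tumour enzymes that act on the outer face of the membrane, and Car9 is a standard target of the hypoxia-inducible factor HIF.

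The 9 genes Car2, Car4, Car5b, Car6, Car8, Car9, Car12, Car13 and Car14 were taken by name from the tables of mRNA levels of 2 mouse tumour lines, which list 54343 genes (MC38) and 55303 genes (B16-F10). They were chosen by the low FPKM of Car6 with Ssbp4 overexpression in MC38, so every value of the 9 genes in that comparison is given here as a description and without a test. The rule used no B16-F10 value. Levels are in FPKM, a fragment count scaled to gene length and to the mapped fragments of the library, which allow genes to be ordered within a library.

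The series holds 15 polyA RNA libraries. MC38, a colon adenocarcinoma line, gave 3 libraries of cells transduced with the retroviral vector pMSCV-IRES-EGFP carrying murine Ssbp4 (OE) and 4 of wild-type cells (WT), and the labels name no MC38 group with an empty vector. B16-F10, a melanoma line, gave 4 libraries of cells electroporated with Cas9 and a mixture of guide RNAs against Ssbp4 (KO) and 4 of cells that received Cas9 and a control guide aimed at an intergenic site (WT). The labels mention no selection of clones. Nothing in them says whether replicates are separate cultures, and the spread behind each p-value may therefore be technical. All cultures had medium with 10% serum.

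Estimated depth was 31.9 to 47.9 M fragments per library. Ssbp4 mRNA differed in the direction of the labels, at 462 to 581 FPKM in MC38 OE against 13.2 to 17.6 FPKM in MC38 WT, and at 19.0 to 24.3 FPKM in B16-F10 KO against 32.4 to 37.4 FPKM in B16-F10 WT. The B16-F10 KO mean was still 64.1% of the WT mean, and mRNA does not show how much protein was lost. The 8 melanocyte markers summed to 16322 to 16833 FPKM in B16-F10 KO and 12729 to 16635 FPKM in B16-F10 WT, and to 76.6 to 79.1 FPKM in MC38 OE and 74.3 to 78.3 FPKM in MC38 WT, where Gpnmb made up nearly the whole sum and Mlana was listed at 0. The labels give melanoma as the tissue of both lines. The 8 epithelial markers summed to 8.96 to 10.8 FPKM in MC38 OE and 6.68 to 8.86 FPKM in MC38 WT, and their 2 tested members moved in opposite directions. Krt8 rose to 8.65 to 10.7 FPKM in OE, against 2.73 to 3.74 FPKM in WT (adjusted p = 2.60e-06), Krt18 fell to 0 to 0.162 FPKM in OE, against 2.64 to 3.54 FPKM in WT (adjusted p = 1.55e-07), Epcam was listed at 0 in OE and at 0.658 to 1.05 FPKM in WT, and Cdx2 was listed at 0. The 7 leukocyte markers summed to 3.64 to 4.37 FPKM in MC38 OE and 2.24 to 3.03 FPKM in MC38 WT, mostly Cd68, which rose (log2 fold change 0.38, adjusted p = 0.0163), whereas Ptprc reached at most 0.0187 FPKM and Cd3e was listed at 0. The 5 endothelial markers summed to 2.94 to 3.63 FPKM in MC38 OE and 4.33 to 5.72 FPKM in MC38 WT, mostly Egfl7, which fell by 0.48 (adjusted p = 0.00258). Pecam1 and Cdh5 went the other way near the floor. Pecam1 had 0.105 to 0.243 FPKM in OE and 0.0263 to 0.0541 FPKM in WT. Cdh5 had 0.0389 to 0.0934 FPKM in OE and 0 to 0.0307 FPKM in WT, while Kdr and Tek overlapped between the groups. The part of these markers in the values of the members was not tested. B16-F10 WT libraries did not all resemble each other, since libraries 1 and 2 lay at -9.43 and -10.3 and libraries 3 and 4 both at 17.8 on the first principal component. Results of members that turn on this split are therefore given with and without each of these pairs.

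Each line used a small part of the family. In MC38 OE, Car6 had 10.7 ± 0.629 FPKM and Car13 had 9.80 ± 0.312 FPKM (SD, n = 3), and in MC38 WT Car6 had 58.8 ± 1.03 FPKM and Car13 had 7.49 ± 0.310 FPKM (SD, n = 4). These were the top 2 of all 16 carbonic anhydrase genes measured in both groups. Car6 and Car13 overlapped in OE libraries, at 10.0 to 11.3 and 9.53 to 10.1 FPKM, whereas in WT libraries they lay far apart. In B16-F10 the order was led by Car14, at 217 ± 7.76 FPKM in KO and 229 ± 7.52 FPKM in WT, followed by Car6, Car13 and Car9 in both groups (SD, n = 4 each). Car14, by contrast, was almost absent from MC38, with 0 to 0.0308 FPKM in OE and 0 to 0.0342 FPKM in WT. The 2 tables were made separately, so levels are set side by side between lines and not tested.

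**Figure D1:**
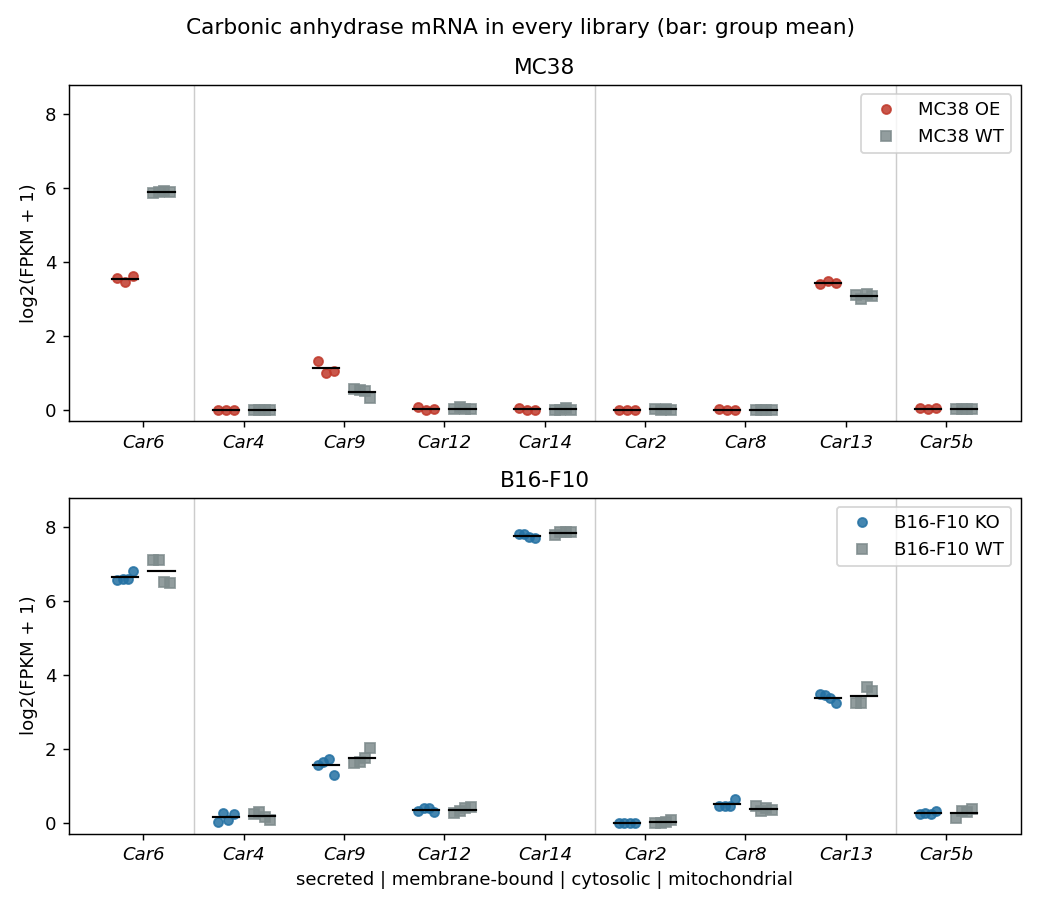
The level of each of the 9 carbonic anhydrases as log2(FPKM + 1), with a point per library and a bar at the group mean, for MC38 (3 OE, 4 WT) above and B16-F10 (4 KO, 4 WT) below. Car6 and Car13 stand out in MC38, Car14 and Car6 in B16-F10, and Car6 differs most between OE and WT.

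Summed over all 16 family members, the level was 22.7 to 24.2 FPKM in MC38 OE and 66.8 to 69.9 FPKM in MC38 WT. Car6 made up 45.7% of that sum in OE and 86.6% in WT. In B16-F10 the sum was 322 to 336 FPKM in KO and 339 to 382 FPKM in WT, and Car14 made up 65.5% and Car6 29.9% of it in KO, against 64.1% and 31.5% in WT. In both B16-F10 groups Car14 and Car6 together thus held nearly the whole sum.

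Car6 had 10.9, 10.0 and 11.3 FPKM in the 3 MC38 OE libraries, against 57.7, 58.3, 60.1 and 59.0 FPKM in the 4 MC38 WT libraries. The groups did not overlap, and within each group the libraries lay close together. The OE mean was 18.2% of the WT mean, a log2 fold change of -2.35 (SE 0.04) on the log2(FPKM + 1) scale, which understates changes of low genes. This is the value for which the family was chosen. In these bulk libraries fewer cells that express a gene and less RNA per cell cannot be told apart.

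In B16-F10, which did not enter the choice, Car6 had 94.0, 95.4, 96.0 and 111 FPKM in KO libraries, against 137, 136, 89.7 and 89.1 FPKM in WT libraries. The KO libraries lay between the higher WT libraries 1 and 2 and the lower WT libraries 3 and 4. The log2 fold change of FPKM + 1 was -0.16 (SE 0.15, 95% interval -0.49 to 0.18), with an adjusted p of 0.589 in limma. The value depended on the split among WT libraries. Without WT libraries 3 and 4 it was -0.46 (adjusted p = 0.00789), where 1349 of 10918 tested genes passed. Without WT libraries 1 and 2 it was 0.14 (adjusted p = 0.151), where 2805 of 10888 tested genes passed. Both p-values are descriptive, since the pairs were picked from these data.

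The promoter window of Car6, from 250 bases before to 50 bases after the start of the gene in RefSeq, is shown because Car6 is the member with the largest difference in MC38. It lies at chr4:150201086-150201385 on the minus strand of GRCm38.p6, an earlier build than the GRCm39 named in the submitters' processing notes. Capitals mark CACGTG, the palindromic E-box core, at position -149 counted from the start of the gene.
Car6: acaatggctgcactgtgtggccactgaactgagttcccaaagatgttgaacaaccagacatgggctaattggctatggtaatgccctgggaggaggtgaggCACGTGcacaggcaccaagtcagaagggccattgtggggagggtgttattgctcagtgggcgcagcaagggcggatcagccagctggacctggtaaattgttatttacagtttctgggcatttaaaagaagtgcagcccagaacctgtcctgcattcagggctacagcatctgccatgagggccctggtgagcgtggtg
Searched on both strands, CACGTG occurs in 7.15% of all 32851 RefSeq windows of this length. The window also holds ACGTG, a form of the core of the hypoxia response element, which overlaps CACGTG here and occurs in 19.6% of windows. Other forms of that core were not searched. It holds neither CATGTG, found in 14.15% of windows, nor TGCAAT, found in 8.40%. GENCODE M21 lists 4 Car6 transcripts, of which the outermost begins inside this window and the others begin 2862 to 5209 bases further inside the gene. FPKM per gene does not separate them.

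Mouse Car6 is known to have an intracellular form, transcribed from inside the gene, that is induced under stress by the transcription factor Ddit3 (CHOP). Transcripts of that stress response, named here after their values had been seen, are therefore given beside Car6. In MC38, Ddit3 had 54.0, 47.9 and 50.3 FPKM in OE, against 100, 111, 99.8 and 102 FPKM in WT (log2 fold change -1.01, SE 0.05, adjusted p = 1.56e-07). Trib3, a pseudokinase induced by Ddit3, had 64.2 to 68.8 FPKM in OE and 131 to 144 FPKM in WT (log2 fold change -1.04, adjusted p = 4.25e-08). Chac1, a glutathione-degrading enzyme, fell by 0.62, the asparagine synthetase Asns by 0.36, the transcription factor Atf3 by 0.94 and Atf4, the upstream activator of this response, by 0.18, with adjusted p-values in MC38 of at most 0.00245. Among all genes tested in MC38, 23.6% were called lower.

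In B16-F10, Ddit3 and Trib3 did not divide the libraries as Car6 did. Ddit3 had 32.2, 28.3, 34.4 and 37.7 FPKM in KO, against 36.9, 38.2, 40.7 and 41.3 FPKM in WT (log2 fold change -0.24, SE 0.08, adjusted p = 0.136), so WT libraries 3 and 4, which were low in Car6, were not low in Ddit3. Trib3 had 23.8 to 25.9 FPKM in KO and 21.3, 20.7, 28.4 and 31.7 FPKM in WT (adjusted p = 0.943), with WT libraries 3 and 4 the highest of all. Values without a pair of WT libraries are again descriptive. Without WT libraries 3 and 4 Trib3 was 0.22 (adjusted p = 0.0258) and Ddit3 -0.18 (adjusted p = 0.241), and without WT libraries 1 and 2 Trib3 was -0.27 (adjusted p = 0.0109) and Ddit3 -0.30 (adjusted p = 0.0439). Atf3, in contrast, had 3.88, 4.55, 4.42 and 4.74 FPKM in KO, against 4.02, 4.06, 3.42 and 3.13 FPKM in WT (log2 fold change 0.21, adjusted p = 0.194), and like Car6 it was lowest in WT libraries 3 and 4. The part of Ddit3 in the Car6 level was not tested.

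**Figure D2:**
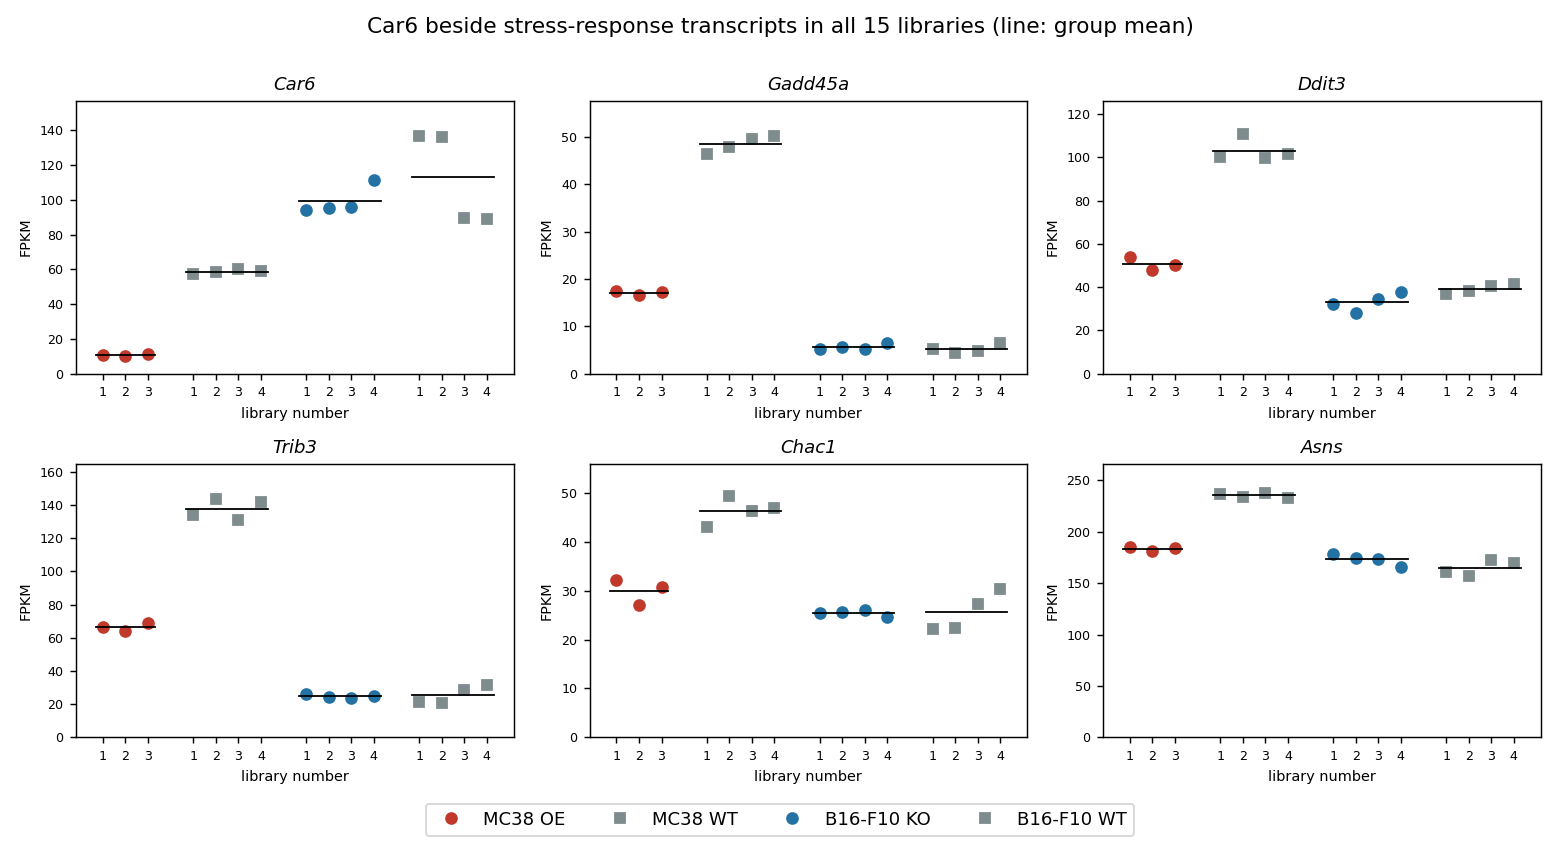
FPKM of Car6 and of 5 stress-response transcripts in each of the 15 libraries, with a line at the group mean; groups run MC38 OE, MC38 WT, B16-F10 KO and B16-F10 WT. All 6 transcripts are lower in each MC38 OE library than in each MC38 WT library, whereas in B16-F10 the high Car6 of WT libraries 1 and 2 is not matched by the other 5. The MC38 difference is a description only. Car6 was chosen for its fall there, Gadd45a for its likeness to Car6, and the others after their values were seen. Among all tested MC38 genes the groups did not overlap for 50.6%, and 23.6% were called lower.

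The 5 transcripts whose pattern over the 7 MC38 libraries was most like that of Car6, out of 10086 compared, were Gars, the glycyl-tRNA synthetase, Gadd45a, a stress-induced growth arrest gene, Htra1, a secreted serine protease, Stbd1, a glycogen-binding protein, and Steap1, a membrane metalloreductase. Their Pearson correlations with Car6 on the log2(FPKM + 1) scale were 0.999 for Gars, Gadd45a, Htra1, Stbd1 and Steap1. The 100th gene in that order still had 0.992. The 7 libraries fall into 2 clusters, OE and WT, so these values largely repeat the difference between the groups. Gadd45a averaged 17.1 FPKM in OE and 48.5 FPKM in WT, and Gars averaged 235 FPKM in OE and 290 FPKM in WT.

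Of the genes taken beside Car6 on chromosome 4, those tested in MC38 did not share its low level in OE. The genes taken were the 3 nearest on each side that averaged at least 1 FPKM in either line. Any nearer genes below that level are left out. On one side, Spsb1, a ubiquitin ligase adaptor, rose by 0.31 (adjusted p = 0.00379) and H6pd, which makes NADPH in the endoplasmic reticulum, rose by 0.20 (adjusted p = 0.0174). The fructose transporter Slc2a5, on the same side, was near 0 in all 7 libraries and was not tested. On the other side lay the glycolytic enzyme Eno1, at 1194 ± 37.7 FPKM in OE and 1203 ± 72.3 FPKM in WT (SD, n = 3 and 4; adjusted p = 0.888), the corepressor Rere (-0.07, adjusted p = 0.351) and the EGF receptor inhibitor Errfi1 (0.21, adjusted p = 0.0417). H6pd no longer passed without OE library 2 or 3, and the Errfi1 call was lost on leaving out OE library 1, 2 or 3 or WT library 2, 3 or 4.

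In B16-F10 the neighbour Slc2a5 was expressed and had 24.2, 24.1, 24.5 and 26.6 FPKM in KO, against 28.8, 28.2, 20.5 and 20.8 FPKM in WT. It ordered the libraries much as Car6 did, highest in WT libraries 1 and 2, next in KO library 4 and lowest in WT libraries 3 and 4. As for Car6, its log2 fold change over all libraries was small (0.03, SE 0.11, adjusted p = 0.900). It was -0.19 without WT libraries 3 and 4 (adjusted p = 0.0490) and 0.26 without WT libraries 1 and 2 (adjusted p = 0.00972). Eno1, on the other side of Car6, went the other way, at 1345 to 1491 FPKM in KO and at 1325, 1384, 1906 and 2025 FPKM in WT (log2 fold change -0.21, adjusted p = 0.412). It was 0.06 without WT libraries 3 and 4 (adjusted p = 0.511) and -0.48 without WT libraries 1 and 2 (adjusted p = 0.00128). For Slc2a5 and Eno1, as for Car6, p-values without a pair are descriptive, since calls over all genes also rose.

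Car14, a membrane-spanning enzyme with its active site outside the cell, was the most abundant member in B16-F10. It had 223, 224, 211 and 209 FPKM in KO libraries, against 218, 232, 232 and 235 FPKM in WT libraries. The groups overlapped, with WT library 1 below KO libraries 1 and 2. The log2 fold change was -0.08 (SE 0.05, 95% interval -0.19 to 0.02, adjusted p = 0.354). Unlike Car6, Car14 did not separate WT libraries 3 and 4 from 1 and 2. RefSeq on GRCm38.p6 places the end of Car14 over the end of Aph1a, a subunit of gamma-secretase, which had 54.1 ± 1.77 FPKM in KO and 58.5 ± 1.16 FPKM in WT (SD, n = 4 each), and whether strand was used in counting is not given in the sources used here.

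The promoter window of Car14 is shown for its level in the melanoma line, at chr3:95904636-95904935 on the minus strand of GRCm38.p6. Capitals mark CACGT, the reverse complement of ACGTG, at position -7.
Car14: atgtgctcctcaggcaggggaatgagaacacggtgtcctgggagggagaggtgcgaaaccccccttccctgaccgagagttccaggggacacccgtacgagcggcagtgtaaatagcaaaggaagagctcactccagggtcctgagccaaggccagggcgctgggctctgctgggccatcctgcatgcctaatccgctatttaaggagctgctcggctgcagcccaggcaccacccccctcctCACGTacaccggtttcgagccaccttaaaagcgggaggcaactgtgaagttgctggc
It holds neither CACGTG nor CATGTG on either strand.

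Car9, the hypoxia-responsive enzyme of the tumour cell surface, was low in both lines. In MC38 it had 1.50, 0.994 and 1.08 FPKM in OE, against 0.465, 0.439, 0.415 and 0.258 FPKM in WT. Every OE library lay above every WT library, and the OE mean was 302% of the WT mean. Among all genes tested in MC38, the groups did not overlap for 50.6%. Averaged over the 7 libraries Car9 stayed under 1 FPKM, the minimum for the fit, and with a minimum of 0.1 FPKM its log2 fold change was 0.65 (SE 0.10). In B16-F10 it had 1.94, 2.11, 2.29 and 1.44 FPKM in KO, against 2.08, 2.11, 2.34 and 3.01 FPKM in WT (log2 fold change -0.20, SE 0.12, 95% interval -0.46 to 0.06, adjusted p = 0.358). The highest value was that of WT library 4 and the lowest that of KO library 4.

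RefSeq places Car9 over parts of Arhgef39 and Tpm2, so reads may be shared between them. In MC38, Arhgef39 rose by 0.38 (adjusted p = 1.29e-04), to 10.6 FPKM in OE against 7.89 FPKM in WT. The tropomyosin Tpm2 rose by 0.32 (adjusted p = 8.68e-05), to 167 FPKM in OE against 133 FPKM in WT. The part of shared reads in the Car9 values was not tested. The Car9 window, at chr4:43506776-43507075 on the plus strand of GRCm38.p6, is shown because Car9 is the member with a known hypoxia response element. Capitals mark CACGT, the reverse complement of ACGTG, at position -18.
Car9: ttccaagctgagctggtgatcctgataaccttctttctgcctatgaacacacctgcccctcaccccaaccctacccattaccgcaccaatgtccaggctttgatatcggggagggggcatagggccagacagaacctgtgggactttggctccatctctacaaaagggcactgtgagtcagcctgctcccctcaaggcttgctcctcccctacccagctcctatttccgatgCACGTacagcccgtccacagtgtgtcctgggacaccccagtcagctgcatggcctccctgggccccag
RefSeq windows were found for 6 of the 9 members, Car4, Car5b, Car6, Car9, Car12 and Car14. Of these, 4, Car4, Car6, Car9 and Car14, hold ACGTG on either strand, beside 19.6% of all 32851 windows. With only 6 windows nothing is read from this count. A match is a run of letters and does not show that a factor binds there.

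The other membrane forms were near the floor. Car12, which like Car9 is known from tumours, had 0 to 0.0570 FPKM in MC38 OE and 0.0080 to 0.0502 FPKM in MC38 WT. In B16-F10 it had 0.210 to 0.319 FPKM in KO and 0.201 to 0.337 FPKM in WT, with overlapping groups. Car4, an enzyme of capillary and epithelial surfaces, was listed at 0 in all 7 MC38 libraries and had 0.0180 to 0.185 FPKM in B16-F10 KO and 0.0418 to 0.212 FPKM in B16-F10 WT.

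Car13, a cytosolic enzyme, was expressed in every library of both lines, at 7.08 FPKM or more. In MC38 it had 9.53, 10.1 and 9.73 FPKM in OE, against 7.68, 7.08, 7.78 and 7.42 FPKM in WT. The groups did not overlap, and the difference, a log2 fold change of 0.35 (SE 0.05), ran opposite to that of Car6. In B16-F10 it had 10.1, 9.89, 9.40 and 8.39 FPKM in KO, against 8.38, 8.48, 11.8 and 10.9 FPKM in WT (log2 fold change -0.05, SE 0.11, 95% interval -0.29 to 0.20, adjusted p = 0.843). WT libraries 3 and 4, which were low in Car6, were the highest in Car13. The sign of the Car13 difference turned with these libraries, at 0.15 without WT libraries 3 and 4 (adjusted p = 0.234) and -0.24 without WT libraries 1 and 2 (adjusted p = 0.05 after rounding, just past the threshold).

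Car13 lies on chromosome 3 in a cluster with Car1, Car3 and Car2, and was the only gene of the cluster above 0.1 FPKM in any library. Car1, the abundant enzyme of red cells, was listed at 0 in all 15 libraries. Car3, known from muscle and fat, was listed at 0 in all 8 B16-F10 libraries and reached at most 0.0320 FPKM in MC38. Car2, the widespread fast cytosolic enzyme, was listed at 0 in all 3 MC38 OE and all 4 B16-F10 KO libraries and reached at most 0.0162 FPKM in MC38 WT and 0.0521 FPKM in B16-F10 WT. The nearest genes beside the cluster that averaged at least 1 FPKM in either line were Rbis and Ythdf3. In MC38, Rbis, a ribosome biogenesis factor, fell by 0.26 (adjusted p = 0.00257) and Ythdf3, a reader of methylated RNA, had a difference of -0.02 (adjusted p = 0.768).

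Red-cell genes are the known company of Car1 and Car2. Of 6 erythroid markers the globin Hba-a1 rose in MC38, at 5.73, 5.54 and 7.01 FPKM in OE, against 0.371, 0.246, 0 and 0 FPKM in WT (log2 fold change 2.63, adjusted p = 1.43e-07). The summed level of the 6 markers was 7.58 to 9.26 FPKM in OE and 0.0166 to 0.548 FPKM in WT, with Hbb-bs, Hbb-bt and Alas2 listed at 0 in every MC38 library. Hba-a2, a near-identical copy with which Hba-a1 may share reads, reached 2.24 FPKM. Car1 and Car2 were listed at 0 in the OE libraries in which Hba-a1 was present, and the part of red-cell transcripts in the other members was not tested.

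Car8, whose protein lacks enzyme activity and binds the inositol trisphosphate receptor, was detected in 1 of 7 MC38 libraries, at 0.0135 FPKM. In B16-F10 it had 0.363, 0.360, 0.368 and 0.550 FPKM in KO, against 0.365, 0.250, 0.305 and 0.270 FPKM in WT. KO library 4 was the highest and the groups overlapped. Car5b, the mitochondrial enzyme, had 0.0084 to 0.0377 FPKM in MC38 OE and 0.0076 to 0.0178 FPKM in MC38 WT, and 0.176 to 0.238 FPKM in B16-F10 KO and 0.0831 to 0.285 FPKM in B16-F10 WT.

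Counted over the members, 2 of 9 had a mean of at least 1 FPKM in MC38, Car6 and Car13. For these 2 genes the OE and WT groups did not overlap, Car6 lower and Car13 higher in OE, and since they were chosen on this comparison no call is given for them and nothing is read from the count. Among the members below that level, the groups did not overlap for Car9, which was higher in OE. Among all 10748 genes tested in MC38, the groups did not overlap for 50.6%, and 47.5% passed an adjusted p of 0.05, 23.6% lower and 23.9% higher. In B16-F10, 4 of 9 reached that level, Car6, Car9, Car13 and Car14, and 0 of 4 passed, where 2.23% of the 10902 tested genes passed, 1.33% higher and 0.899% lower, and where the groups did not overlap for 13.9% of them. Of all calls in B16-F10 59.7% were higher in KO, a share that was 73.1% after scaling to a common total and 39.8% after median-of-ratios scaling. The members' median log2 fold change was -0.12, against 0.02 over all tested genes, and 0 of the 4 had an unadjusted p under 0.05 in limma, where 21.3% of tested genes had one. The 5 members below that level were compared by two-sided exact permutation tests, which gave p = 0.429 for Car2, 0.657 for Car4, 0.886 for Car5b, 0.0857 for Car8 and 0.943 for Car12, without adjustment for the 5 tests. The smallest p that 4 libraries against 4 allow is 0.0286.

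Among the 7 family members outside the chosen 9, Car7, a cytosolic enzyme of brain, had 1.56, 1.18 and 1.02 FPKM in MC38 OE, against 0.691, 0.483, 0.731 and 0.599 FPKM in MC38 WT. The groups did not overlap, as for 50.6% of all genes tested in MC38, and p was 0.0286 in an exact permutation test (two-sided), the smallest that 3 libraries against 4 allow. Its mean was under 1 FPKM, and with a minimum of 0.1 FPKM limma gave a log2 fold change of 0.47 (adjusted p = 0.00373). At that minimum 5463 of 14127 genes passed in MC38. Car11 and Car15 had a mean of at least 1 FPKM only in B16-F10. There Car11, an inactive relative, had 1.54 ± 0.292 FPKM in KO and 1.28 ± 0.255 FPKM in WT (adjusted p = 0.446), and Car15, a lipid-anchored form, had 1.09 ± 0.367 FPKM in KO and 0.920 ± 0.209 FPKM in WT (SD, n = 4 each; adjusted p = 0.697). Car5a reached at most 0.103 FPKM and Car10 at most 0.0318 FPKM.

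Carbonic anhydrases work with transporters that carry bicarbonate, protons and lactate across membranes. In MC38, 2 of 6 tested genes of the bicarbonate transporter families rose and 1, Slc4a11, fell. That share was near that of all tested genes, of which 47.5% passed, 23.9% higher and 23.6% lower. Slc4a7, a sodium bicarbonate cotransporter, had 15.9 FPKM in OE and 12.3 FPKM in WT (log2 fold change 0.35, adjusted p = 0.00107), and Slc4a4, of the same kind, rose by 0.26 (adjusted p = 0.0185). Slc4a11, known to carry protons and water rather than bicarbonate, fell to 2.38 ± 0.258 FPKM in OE, against 4.64 ± 0.143 FPKM in WT (SD, n = 3 and 4; log2 fold change -0.74, adjusted p = 1.37e-05). Slc4a4 did not pass without OE library 1 or 3. The median of the list was -0.01, that of all tested genes -0.01.

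Of 10 tested genes of proton exchange and lactate export 4 rose and 2 fell in MC38, beside 23.9% higher and 23.6% lower among all tested genes, with a median log2 fold change of 0.06 against -0.01 over all genes. Slc16a3, the lactate exporter of glycolytic cells, had 152 ± 4.54 FPKM in OE and 110 ± 7.95 FPKM in WT (SD, n = 3 and 4; log2 fold change 0.47, adjusted p = 5.79e-05). The Golgi sodium-proton exchanger Slc9a8 fell by 0.27 and Emb, a chaperone of lactate transporters, fell by 0.25. Of 17 tested subunits of the vacuolar proton pump 10 rose and 0 fell, beside 23.9% higher and 23.6% lower among all tested genes, with a median of 0.16 against -0.01, led by Atp6ap2 (0.40), Atp6v0a1 (0.36) and Atp6v0b (0.35). Of the acid-sensing receptors only Asic1 was tested and it rose by 0.31, which did not pass without OE library 1 or 3.

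Oxygen sensing and HIF target genes, the group with which Car9 is known to be regulated, had 14 of 18 tested members higher and 0 lower in MC38, beside 23.9% higher and 23.6% lower among all tested genes, with a median log2 fold change of 0.34 against -0.01. The mitophagy receptor Bnip3 rose to 124 FPKM in OE, against 58.5 FPKM in WT, and Ankrd37 rose by 1.00. Egln3, a hydroxylase that marks HIF for destruction, rose to 14.1 FPKM in OE, against 7.09 FPKM in WT. Hif1a itself had 38.1 FPKM in OE and 35.6 FPKM in WT (adjusted p = 0.128). Car9 and Car13 stood higher and Car6 lower in the same OE libraries.

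**Figure D3:**
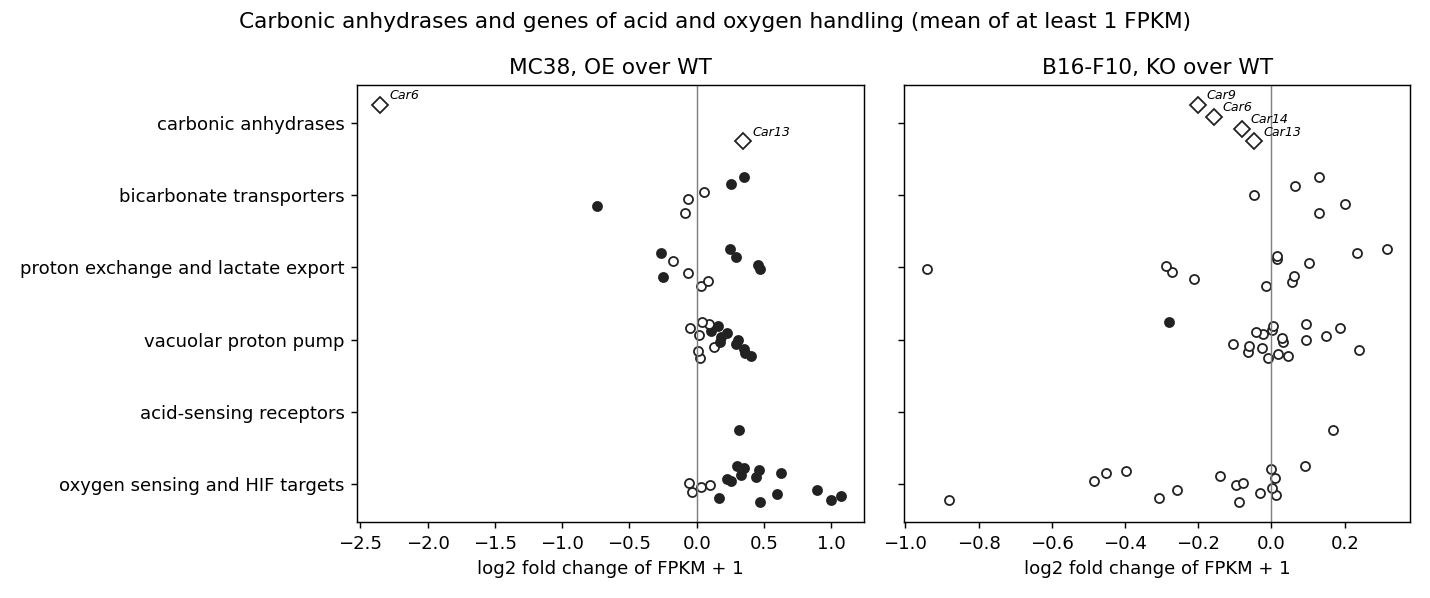
Log2 fold change of FPKM + 1 for each carbonic anhydrase (diamonds) and each gene of acid and oxygen handling (circles) with a mean of at least 1 FPKM, in MC38 (OE over WT, left) and B16-F10 (KO over WT, right), on different axes. Filled circles passed an adjusted p of 0.05, open symbols did not, and the MC38 carbonic anhydrases are open because no test is given for genes chosen on that comparison; 14 of 18 oxygen genes are filled in MC38 and 0 of 16 in B16-F10.

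In B16-F10, 1 of the 53 tested genes in these 5 lists passed, where 2.23% of all tested genes did. It was Tcirg1, a membrane subunit of the proton pump, which fell to 45.0 FPKM in KO, against 55.0 FPKM in WT (log2 fold change -0.28, SE 0.05, adjusted p = 0.0288). The call was lost on leaving out KO library 1, 2 or 3 or WT library 2, 3 or 4, with adjusted p-values up to 0.118. Medians ranged from -0.09 for the 16 tested oxygen genes to 0.17 for Asic1 alone. In the 4 lists in which limma called 0, an unadjusted p under 0.05 was found for 1 of 5 bicarbonate transporters, 4 of 12 proton and lactate genes, 0 of 1 acid receptor and 4 of 16 oxygen genes, where 21.3% of all tested genes had one. The most abundant genes of these lists were the anion exchanger Slc4a2 (0.20, adjusted p = 0.177), Slc4a8 (0.13, adjusted p = 0.289), the lactate transporter partner Bsg (-0.01, adjusted p = 0.897), the proton channel Hvcn1 (0.06, adjusted p = 0.561), Asic1 (0.17, adjusted p = 0.325), the lactate dehydrogenase Ldha (-0.49, adjusted p = 0.228) and Hif1a (0.00, adjusted p = 0.991). Several of these values turned on the WT libraries used. So did the calls over all tested genes, which were 2805 of 10888 without WT libraries 1 and 2 and 1349 of 10918 without WT libraries 3 and 4. Without WT libraries 1 and 2, Ldha was -0.94 (adjusted p = 3.33e-05), Slc4a2 0.34 (adjusted p = 0.00242) and Asic1 0.32 (adjusted p = 0.0159), each past the threshold. Without WT libraries 3 and 4 the same genes were at -0.03 (Ldha, adjusted p = 0.702), 0.07 (Slc4a2, adjusted p = 0.428) and 0.02 (Asic1, adjusted p = 0.900), while Slc4a8 was 0.23 (adjusted p = 0.0322), against 0.03 for Slc4a8 without WT libraries 1 and 2 (adjusted p = 0.720).

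The spread between B16-F10 WT libraries went with Bnip3, Ldha and the summed melanocyte markers as well as with Car6. It was not shared by all oxygen genes, since WT libraries had 53.0 to 59.1 FPKM of Hif1a and 9.96 to 12.6 FPKM of Vegfa. Bnip3 had 7.75, 8.23, 8.00 and 5.40 FPKM in KO, against 4.85, 4.55, 39.7 and 39.5 FPKM in WT. Ldha had 546, 527, 522 and 488 FPKM in KO, against 528, 539, 995 and 1001 FPKM in WT. The melanocyte markers summed to 16833, 16452, 16322 and 16415 FPKM in KO, against 16484, 16635, 12729 and 12766 FPKM in WT. WT libraries 3 and 4 were thus high in Bnip3, Ldha and Car13 and low in Car6, Slc2a5 and the summed melanocyte markers. KO library 4, with 111 FPKM of Car6, was the lowest of the KO libraries in Bnip3, Ldha, Car13 and Car9. What sets these libraries apart was not tested, and the labels give no batch.

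**Figure D4:**
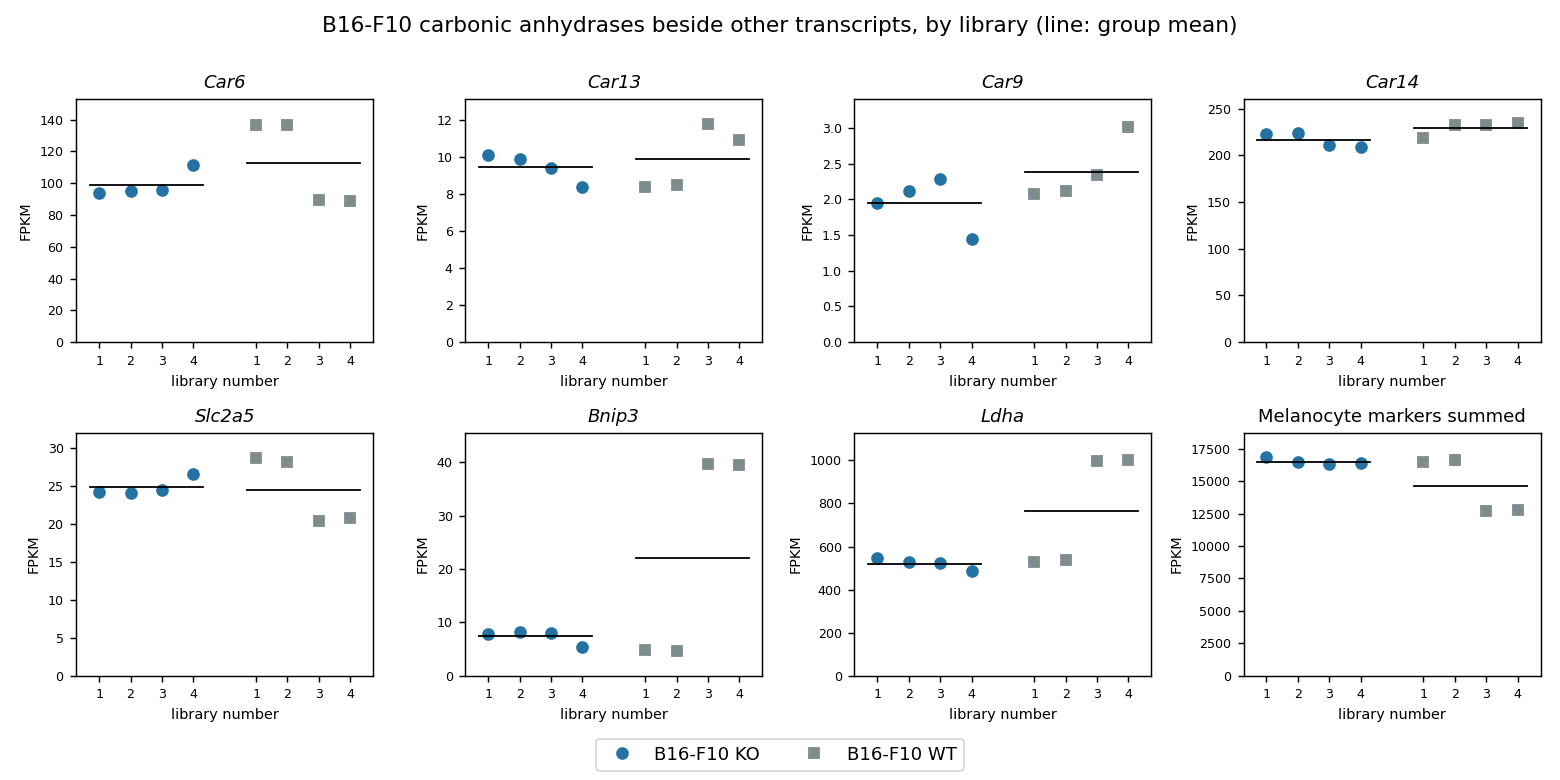
FPKM in each of the 8 B16-F10 libraries (4 KO, 4 WT), with a line at the group mean, for 4 carbonic anhydrases, the Car6 neighbour Slc2a5, the HIF targets Bnip3 and Ldha, and the sum of 8 melanocyte markers. WT libraries 3 and 4 are low in Car6 (89.7 and 89.1 FPKM) and high in Bnip3 (39.7 and 39.5 FPKM), while Car14 varies little.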

How the data were processed

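Polyadenylated RNA was measured in 15 libraries made with the Illumina TruSeq Stranded mRNA kit, per the labels. The authors deposited 1 FPKM table per line, and the submitters' processing notes name GRCm39 and DESeq2; the aligner, counter and annotation they used were not given in the sources read. All columns were matched by library name (0 unmatched). Depth came from the steps between low FPKM values, using GENCODE M21 lengths; 86.4 to 89.8% of low values lay within 0.1 of a whole number. No 2 replicates agreed within sampling noise (chi-square over degrees of freedom 5.85 or more).

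limma 3.58.1 (R 4.3.3) with a mean-variance trend was fitted to log2(FPKM + 1) in each line separately, for genes averaging at least 1 FPKM there. Adjusted p-values are Benjamini-Hochberg over all genes tested, at a threshold of 0.05, and the code was tested on simulated data. The members and the lists were chosen with earlier results of these data known. Genes were named by rule, comprising all members, Ssbp4, neighbours of Car6 and of the chromosome 3 cluster, overlapping genes, the 5 transcripts most like Car6 and, per list, at most 3 called genes in each direction or else the 2 most abundant. Some genes that this rule names are not reported here. Stress genes and the motifs other than ACGTG were picked once values had been seen. Alternatives varied pseudocount, filter, scaling, variance model, library weights and replicate block, and left out libraries. Sequences are from RefSeq (GRCm38.p6). Figures were drawn with matplotlib 3.10.9.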

Additional observations from a re-analysis of the deposited data

Results flagged for a closer look

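Among the 24 sets of 4 libraries checked for a member, 4 held a library far from the other 3 by Dixon's test, a rule that chance alone meets in about 1 set in 20. In B16-F10 KO, library 4 was the highest for Car6, at 111 FPKM against 94.0 to 96.0 FPKM in KO libraries 1 to 3, for Car8, at 0.550 FPKM, and for Car5b, at 0.238 FPKM. In MC38 WT, Car14 was detected in library 3, at 0.0342 FPKM, and listed at 0 in the other libraries of the group. A lone detection beside values of 0 always meets the rule, so the rate of 1 in 20 does not apply to that set.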

How the results depend on the processing

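In MC38 the counts of called acid and oxygen genes (28 to 37) and of all called genes (3917 to 5463) stayed within 1.5 times of 34 and 5107 under each of 16 alternatives. With a pseudocount of 0.1 the Car6 value was -2.44. In B16-F10, 0 members were called in 17 of 19 alternatives; the exceptions were 1 (Car6) without WT libraries 3 and 4 and 1 (Car13) without WT libraries 1 and 2. The count of acid and oxygen genes, 1 over all libraries, was 2 with library weights, 0 to 1 with any library left out, 11 without WT 3 and 4 and 24 without WT 1 and 2. All B16-F10 calls, 243 over all libraries, were 140 at a minimum of 0.1 FPKM, 73 with no minimum, 776 with library weights, 23 (without KO 2) to 414 (without KO 4) with any library left out, each of which moved the count by over 1.5 times, 1349 without WT 3 and 4 and 2805 without WT 1 and 2. Some small differences changed sign. After scaling to a common total Eno1 (0.0168) and Ythdf3 (0.0083) in MC38 and Bsg (0.0033) in B16-F10 were positive, and after median-of-ratios scaling Hif1a was -0.0217 in B16-F10. With library weights B16-F10 gave 0.0287 for Car13, 0.0276 for Trib3 and -0.0462 for Slc2a5. Without WT 3 and 4 it gave 0.1458 for Car13, -0.0093 for Car15, 0.03 for Bsg, 0.2248 for Trib3, -0.1902 for Slc2a5 and 0.0603 for Eno1, and without WT 1 and 2 it gave 0.1447 for Car6 and -0.0361 for Hif1a. With any 1 library left out, MC38 ranges were -0.0367 to 0.0234 for Eno1 and -0.04 to 0.0064 for Ythdf3, and B16-F10 ranges were -0.1148 to 0.0336 for Car13, -0.0303 to 0.0148 for Bsg, -0.0162 to 0.0353 for Hif1a, -0.1102 to 0.0858 for Trib3 and -0.0444 to 0.1129 for Slc2a5. The cause was not tested. Replicate numbers did not pair the libraries: residuals of same-numbered libraries correlated at -0.288 to -0.066 in MC38 and -0.298 to 0.165 in B16-F10, and 0 libraries correlated best with their own number. With the replicate block, which has no partner for MC38 WT 4, the counts were 31 acid and oxygen genes and 3917 genes in MC38 (Eno1 0.005) and 0 members, 0 acid and oxygen genes and 12 genes in B16-F10. FPKM without counts gives no counting error for the low members, where a few fragments decide a value.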
